A study of Homo sapiens with 5 samples.

Results

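MYB, MYBL1, MYBL2, FOXM1, E2F1, E2F2, E2F3, E2F7, E2F8 and LIN54, a group of transcription factors of the cell cycle, were described by every probe set listed for them alone, 18 probe sets in all. They are 10 of the 19775 genes with a probe set of their own, and 18 of the 54613 probe sets that are not array controls. The genes were chosen from earlier results of these same arrays, so their differences are given as a description, with no test. The cells were MHH-ES-1, a long-established line from a human Ewing sarcoma. They were harvested 48 h after lipid transfection with 50 nM of a microRNA mimic, a synthetic double-stranded RNA that acts as the microRNA of the same name. The groups were the 5p arm of miR-483 (2 arrays), the 3p arm (1 array) and a scrambled sequence (2 arrays), all in unmodified MHH-ES-1 cells with the same dose and time, and the miR-483 hairpin is encoded inside the IGF2 gene. Second arrays are labelled as repeats with no word on separate cultures, so every error and p-value here measures only the spread between arrays, and that may be technical. Values of the miR-483-3p group rest on 1 array, which was assumed to vary like the others, and both mimics were set against the same 2 control arrays.

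E2F proteins control the genes of S phase entry, and most bind DNA with a dimer partner of the TFDP family. E2F1, E2F2 and E2F3 act as activators once the retinoblastoma (RB) pocket proteins release them. E2F7 and E2F8 are atypical repressors that bind without a TFDP partner. LIN54 is the DNA-binding subunit of MuvB, a complex that joins pocket proteins to silence cell cycle genes in resting cells (DREAM) and that later joins B-MYB, the product of MYBL2, and FOXM1 to activate the genes of G2 and mitosis. MYB (c-MYB) is best known from blood progenitors, and MYBL1 (A-MYB) from meiosis in the male germ line.

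Signals below are linear probe set intensities, and differences are of log2(signal + 32), a scale on which changes of dim probe sets look smaller. Of the 18 probe sets, 16 passed the filter on low values, a mean log2 value at or above the 40th percentile over the array's probe sets, equal to a signal of 27.2. One of the 3 probe sets for MYBL1 and one of the 2 for MYB did not pass. The tables hold no detection calls, so dim probe sets cannot be placed above or below background. Apart from the filter, the marker sums and the choice of a gene's brightest probe set, signals of different probe sets are not compared with each other.

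The array medians of all probe sets were 39.2 to 44.9. Ewing sarcoma markers such as CD99 and NKX2-2 were measured well above the filter (7 of 7 genes, summed signal 23795 to 27709 per array). None of the 3 epithelial markers passed the filter (summed signal 24.9 to 64.2), and of the 4 blood cell markers with a probe set only CD34 did (summed signal of the 4 genes 130 to 145). Of the 3 spermatocyte markers SYCP1 alone passed, at 2715 to 3107, and it made up nearly all of their summed signal of 2724 to 3124. The ratio of the 3' to the 5' GAPDH probe set, a sign of RNA integrity, was 1.09 and 1.10 on the miR-483-5p arrays, 1.02 and 0.996 on the controls and 1.06 on the miR-483-3p array. The GAPDH ratio thus differed between the groups in the same order as several members below. The ACTB ratio was 1.182 and 1.073 on the miR-483-5p arrays, 1.065 and 1.04 on the controls and 1.093 on the miR-483-3p array. There the miR-483-3p array lay between the miR-483-5p arrays. The part of these ratios in the results was not tested. In bulk RNA, fewer cells in a cell cycle phase and less RNA per cell cannot be told apart.

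**Figure D1:**
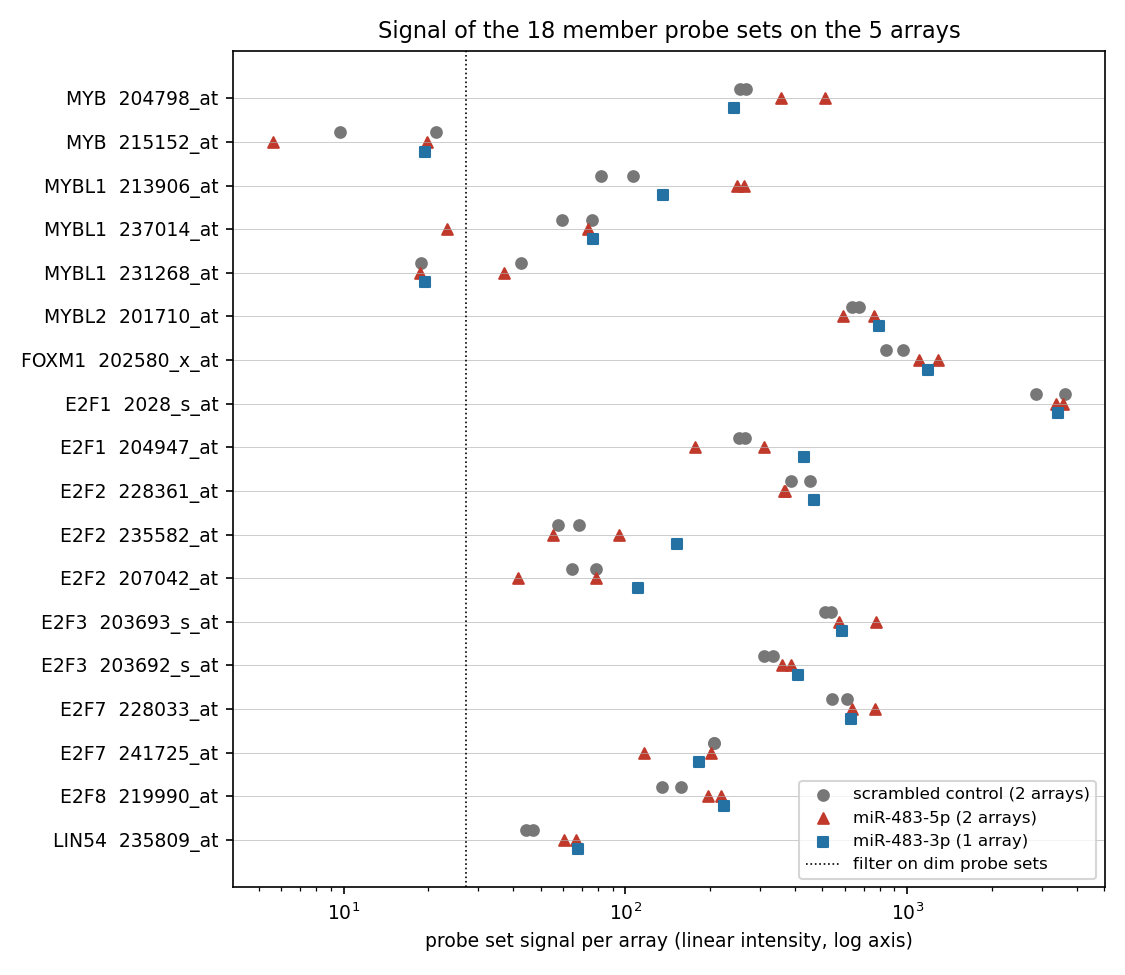
Signal of each of the 18 probe sets on the 5 arrays (horizontal axis, linear intensity on a log scale). Grey circles are the 2 scrambled control arrays, red triangles the 2 miR-483-5p arrays and blue squares the miR-483-3p array, and the dotted line is the filter on dim probe sets at 27.2. The red triangles of MYBL1 213906_at, at 263.2 and 249.7, stand clear of its controls, at 81.7 and 106.5.

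Among the 3 MYB family genes, MYBL1 had the largest difference between miR-483-5p and control, and the widest gap there between its probe sets. MYBL1 213906_at read 263.2 and 249.7 on the miR-483-5p arrays, 81.7 and 106.5 on the controls and 136.1 on the miR-483-3p array. Both miR-483-5p arrays were far above both controls, and the miR-483-3p array lay between the other groups. The log2 difference from the control was 1.20 (SE 0.17), or 2.3-fold, for miR-483-5p and 0.42 (SE 0.21) for miR-483-3p.

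The second MYBL1 probe set did not show this. MYBL1 237014_at read 73.5 and 23.2 on the miR-483-5p arrays, 76.3 and 59.6 on the controls and 76.6 on the miR-483-3p array. The miR-483-5p arrays differed widely from each other and overlapped the controls, so the log2 difference of -0.38 (SE 0.30) rested on the second of them: leaving it out gave 0.08. For miR-483-3p it was 0.12 (SE 0.37). The third, MYBL1 231268_at, was under the filter and read 18.6 and 37.0 on the miR-483-5p arrays, 42.6 and 18.8 on the controls and 19.5 on the miR-483-3p array. Its groups overlapped throughout, and its log2 differences of -0.06 and -0.26 changed sign when single arrays were left out.

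The brightest and the second MYBL1 probe set differed by 1.58 in their log2 difference between miR-483-5p and control. Across the 6843 genes with at least 2 probe sets past the filter, the median of this gap between the 2 brightest was 0.17, and the signs were opposite for 38.6% of genes. A gap of at least 1.58 was found for 3 of these genes (0.0438%), MYBL1 included. Between miR-483-3p and control the MYBL1 gap was 0.30, a size reached by 28.6% of genes. Because MYBL1 was chosen for this disagreement, these ranks only place it. The mean over all 3 MYBL1 probe sets gave a log2 difference of 0.25 for miR-483-5p and 0.10 for miR-483-3p, so a gene-level value depended on which probe set stood for the gene.

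**Figure D2:**
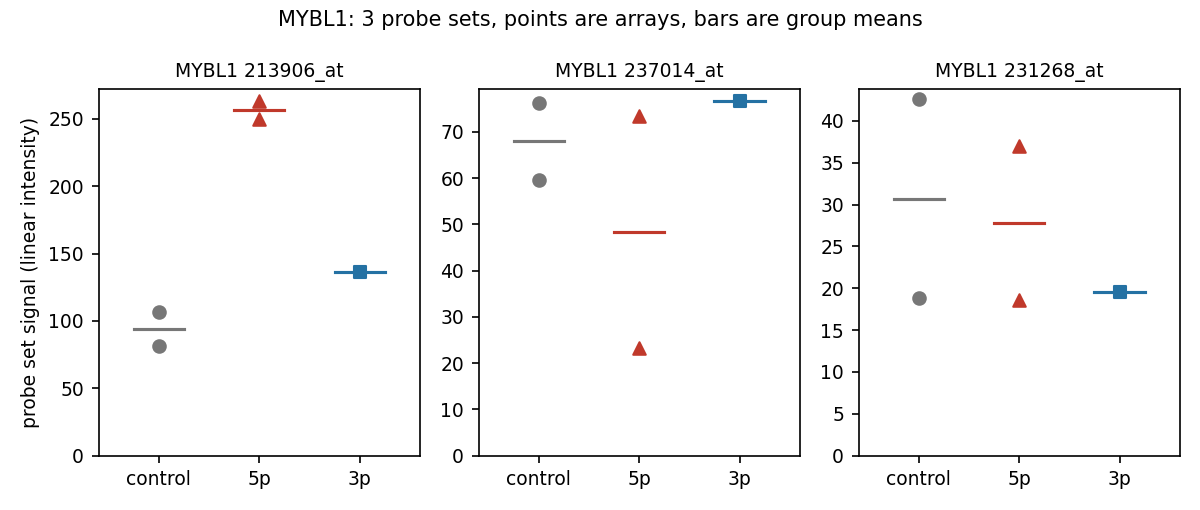
Signal (vertical axis, linear intensity from 0, own scale in each panel) of the 3 MYBL1 probe sets in the control, miR-483-5p and miR-483-3p arrays. Points are arrays and bars are group means: in 213906_at the miR-483-5p mean was 256 against 94.1 in the control, in 237014_at it was 48.4 against 68.0, and in 231268_at 27.8 against 30.7.

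The 5 genes whose pattern over the 5 arrays lay nearest to that of MYBL1 213906_at, among 26785 probe sets with 1 gene symbol that passed the filter, were PRRT2, HNRNPD, OPN3, PAG1 and FBXO43. Likeness was the root mean square difference of the centred log2 values, which ran from 0.137 for PRRT2 to 0.158 for FBXO43. PRRT2 227192_at read 142.2 and 107.6 with miR-483-5p, 42.2 in both controls and 68.4 with miR-483-3p. FBXO43 236852_at, a gene of an inhibitor of the anaphase-promoting complex in meiosis, read 118.6 and 103.8, then 41.1 and 52.7, and 66.8. With 5 arrays many probe sets can share an order, and these are a description of the nearest ones.

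In its probe set past the filter, MYB, the founding member of the family, was higher on the miR-483-5p arrays than in the control. On the miR-483-3p array it was slightly lower, by less than the SE. MYB 204798_at read 509.5 and 356.5 on the miR-483-5p arrays, 268.8 and 254.4 on the controls and 242.5 on the miR-483-3p array. Both miR-483-5p arrays were above both controls, and the miR-483-3p array was the lowest of the 5. The log2 difference was 0.64 (SE 0.20) for miR-483-5p, 0.40 without its first array, and -0.10 (SE 0.24) for miR-483-3p. The difference between the arms, miR-483-3p minus miR-483-5p, was -0.74 (SE 0.24). The other MYB probe set, 215152_at, read 5.6 to 21.3 across the arrays, all below the filter, and its groups overlapped. Its log2 differences of -0.10 for miR-483-5p and 0.13 for miR-483-3p changed sign when single arrays were left out.

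MYBL2, the B-MYB gene, did not separate miR-483-5p from the control. MYBL2 201710_at read 764.0 and 592.7 on the miR-483-5p arrays, 636.2 and 672.1 on the controls and 796.4 on the miR-483-3p array. The miR-483-5p arrays lay on either side of the controls (log2 difference 0.04, SE 0.18), and the miR-483-3p array was the highest (0.27, SE 0.22). FOXM1, the forkhead factor that acts after B-MYB, read 1287.6 and 1100.0 on the miR-483-5p arrays, 839.1 and 969.1 on the controls and 1184.7 on the miR-483-3p array in 202580_x_at. All 3 mimic arrays were above both controls, and the log2 differences were 0.39 (SE 0.17) and 0.38 (SE 0.21). The suffix of this probe set marks probes that may also bind other transcripts.

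LIN54 235809_at was dim but tightly grouped. It read 66.9 and 60.6 on the miR-483-5p arrays, 44.3 and 47.1 on the controls and 68.1 on the miR-483-3p array. All 3 mimic arrays were above both controls, with log2 differences of 0.30 (SE 0.15) and 0.37 (SE 0.18).

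Of the activator E2F genes, E2F1 gave different pictures in its probe sets. E2F1 2028_s_at read 3374.7 and 3563.5 on the miR-483-5p arrays, 2857.5 and 3630.2 on the controls and 3418.0 on the miR-483-3p array. The controls spanned all mimic arrays, and both log2 differences (0.11 and 0.08) were smaller than their SE (0.18 and 0.22). E2F1 204947_at read 309.6 and 176.9 on the miR-483-5p arrays, 252.9 and 264.7 on the controls and 428.3 on the miR-483-3p array. Here the single miR-483-3p array was above the other 4 (log2 difference 0.66, SE 0.30), while miR-483-5p overlapped the control (-0.12, SE 0.24).

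All 3 E2F2 probe sets were highest on the miR-483-3p array. E2F2 228361_at read 366.5 and 367.9 on the miR-483-5p arrays, 387.4 and 449.9 on the controls and 465.5 on the miR-483-3p array. Both miR-483-5p arrays were below both controls here, by a log2 difference of -0.17 (SE 0.16), or -0.07 without the second control array. For miR-483-3p the log2 difference was 0.15 (SE 0.19). E2F2 235582_at read 55.3 and 94.5 on the miR-483-5p arrays, 68.6 and 57.6 on the controls and 152.9 on the miR-483-3p array. Its log2 difference of 0.96 (SE 0.26) for miR-483-3p was the largest of any member in that comparison. That value ran from 0.63 to 1.27 with other scalings and pseudocounts. E2F2 207042_at read 41.6 and 78.9 on the miR-483-5p arrays, 64.4 and 78.7 on the controls and 110.7 on the miR-483-3p array, a log2 difference of 0.47 (SE 0.28). In both of these the miR-483-5p arrays overlapped the controls. The difference of miR-483-3p minus miR-483-5p was 0.32 (SE 0.19) for 228361_at, 0.82 (SE 0.26) for 235582_at and 0.66 (SE 0.28) for 207042_at.

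E2F3 was higher on all 3 mimic arrays than on both controls in each of its probe sets. E2F3 203693_s_at read 774.9 and 574.6 on the miR-483-5p arrays, 535.5 and 511.5 on the controls and 587.9 on the miR-483-3p array. The log2 differences were 0.33 (SE 0.19) and 0.16 (SE 0.23), and the first miR-483-5p array stood above the rest: without it the first value was 0.13. E2F3 203692_s_at read 358.1 and 386.7 on the miR-483-5p arrays, 311.0 and 333.6 on the controls and 407.8 on the miR-483-3p array. The log2 differences were 0.19 (SE 0.15) and 0.31 (SE 0.19).

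Of the atypical repressors, E2F8 219990_at read 218.9 and 197.0 on the miR-483-5p arrays, 158.0 and 135.0 on the controls and 224.1 on the miR-483-3p array. All 3 mimic arrays were above both controls, with log2 differences of 0.43 (SE 0.16) and 0.52 (SE 0.20). E2F7 had opposite signs in its probe sets. E2F7 228033_at read 767.6 and 636.5 on the miR-483-5p arrays, 612.4 and 540.3 on the controls and 630.2 on the miR-483-3p array, and all 3 mimic arrays were above both controls (0.27, SE 0.17, and 0.12, SE 0.21). The miR-483-5p value was 0.14 when its first array was left out. E2F7 241725_at read 116.1 and 201.9 on the miR-483-5p arrays, 205.7 and 206.8 on the controls and 182.9 on the miR-483-3p array. There the mimic arrays were all below both controls, but the second miR-483-5p array only by a few units (-0.36, SE 0.23, and -0.03 without the first array).

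**Figure D3:**
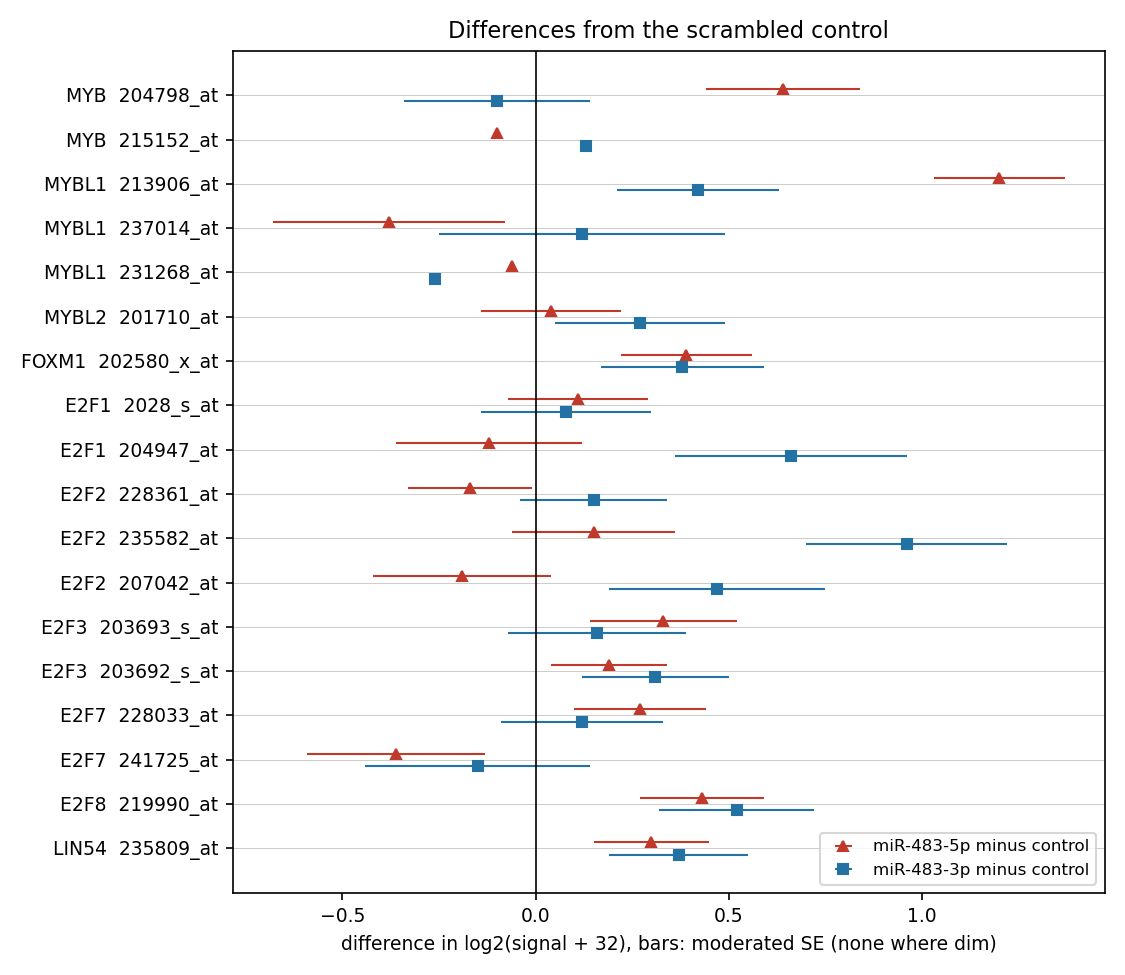
Difference in log2(signal + 32) from the scrambled control (horizontal axis) for each of the 18 probe sets, red triangles for miR-483-5p and blue squares for miR-483-3p, with bars of 1 moderated SE where the probe set passed the filter. MYBL1 213906_at is farthest to the right for miR-483-5p at 1.20, and E2F2 235582_at for miR-483-3p at 0.96.

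Over the 16 member probe sets past the filter, both miR-483-5p arrays were above both controls in 8 and below both in 2. Of all 32768 probe sets tested, 18.5% and 21.2% did the same. The miR-483-3p array was above both controls in 13 of these 16 and below both in 2, against 32.5% and 35.6% of all tested. It was above both miR-483-5p arrays in 9 and below both in 3, against 32.8% and 33% of all tested. The members were selected on these contrasts, so nothing is read from their counts. No probe set passed an adjusted p of 0.05 in limma in any comparison: 0 of 32768 (0%) for miR-483-5p against control, 0 (0%) for miR-483-3p against control and 0 (0%) between the arms. The lowest adjusted p values were 0.495, 0.712 and 0.785, and at an unadjusted p under 0.05 there were 2730, 1834 and 1872 probe sets.

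Promoters are shown because several genes of the E2F and MYB families are known to be transcribed under E2F control. Of the 10 members, the promoters of FOXM1, E2F8 and MYBL1 were not analysed here. RefSeq promoter sequences (build GRCh38.p14, 250 bases before to 50 after a gene's start) were used for the other 7, with 9 start sites. They were searched on both strands for an E2F consensus (TTTCCCGC, TTTCGCGC, TTTGCCGC or TTTGGCGC), for the shorter E2F sequence GGCGGGA, chosen after the promoters were read, for the cell cycle homology region bound by LIN54 (CHR, TTTGAA or TTCGAA) and for a MYB site, that is CAACGG, its form with T as the first base, and the forms of both with T as the fifth base. Capitals mark E2F and CHR matches on either strand, and each stretch reads 5′ to 3′ on the gene's strand and ends before the start site.
MYB, chr6:135181235-135181271, plus strand: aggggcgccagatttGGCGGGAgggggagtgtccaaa
MYBL2, chr20:43667060-43667096, plus strand: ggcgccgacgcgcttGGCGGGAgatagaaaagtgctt
E2F1, chr20:33686386-33686548, minus strand: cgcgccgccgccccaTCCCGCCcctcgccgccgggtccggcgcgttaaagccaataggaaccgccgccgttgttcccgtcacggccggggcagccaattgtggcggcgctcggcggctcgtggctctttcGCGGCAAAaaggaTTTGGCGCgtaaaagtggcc
E2F2, chr1:23531253-23531290, minus strand: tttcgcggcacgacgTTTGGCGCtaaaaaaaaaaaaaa
E2F3 first start, chr6:20401799-20401848, plus strand: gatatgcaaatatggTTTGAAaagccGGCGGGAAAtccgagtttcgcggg
E2F3 second start, chr6:20403466-20403597, plus strand: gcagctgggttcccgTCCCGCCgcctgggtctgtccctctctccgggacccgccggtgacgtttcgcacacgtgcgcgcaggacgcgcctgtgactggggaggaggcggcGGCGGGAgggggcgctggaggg
LIN54, chr4:83010884-83010938, minus strand: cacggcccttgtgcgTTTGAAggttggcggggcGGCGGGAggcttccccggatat

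The E2F consensus was in the promoters of E2F1 (2 matches), E2F2 and E2F3, that is 3 of the 7 members, against 3.3% of all 34943 promoters of this length. In E2F3 the consensus and the CHR were at the first of its start sites alone, where the consensus overlapped the shorter sequence GGCGGGA, and the second start site held only the shorter sequence. That shorter sequence was in 5 of 7 members (MYB, MYBL2, E2F1, E2F3 and LIN54), against 15.3% of all promoters. It was chosen after these promoters were read, so nothing is read from its share. For every sequence, a member counts if any of its start sites has a match, while the background counts single promoters. The CHR was in E2F3 and LIN54 (16.4% of all promoters) and the MYB site in E2F1 (25.7%). E2F7 held none of these letters in its window. A match describes the sequence and does not show binding, and whether it bears on the signals was not tested. Among the members with a consensus match, E2F3 was higher on all mimic arrays than on the controls. All E2F2 probe sets, E2F1 204947_at and E2F3 203692_s_at were highest on the miR-483-3p array, while E2F1 2028_s_at and E2F3 203693_s_at were not.

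The proteins that work with the members were taken as lists, with each gene at its brightest probe set. The lists, like the members, were drawn up with earlier results of these arrays known, and none of their genes passed an adjusted p of 0.05. For reference, 4.24% of the 14591 genes tested were higher and 4.45% lower at an unadjusted p under 0.05 with miR-483-5p. The shares were 1.79% and 3.35% with miR-483-3p, and 2.46% and 2.71% between the arms. The median log2 difference over all these genes was -0.01 for miR-483-5p, with 48.5% of genes higher, and -0.00 for miR-483-3p, with 49.8% higher. Between the arms it was -0.00, with 49.8% of genes higher with miR-483-3p.

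Of the other E2F genes, the dimer partners and the pocket proteins, 8 of 9 passed the filter, and none reached an unadjusted p of 0.05 in limma in any comparison. Their log2 differences ran from -0.23 (RBL2, the p130 gene) to 0.27 (RBL1, the p107 gene) for miR-483-5p, with a median of 0.02, and from -0.35 (TFDP2, a dimer partner) to 0.30 (TFDP1, another) for miR-483-3p, with a median of -0.05. Other probe sets of these genes differed. For miR-483-5p they gave -0.38 for RBL2 and -0.11, -0.00 and 0.14 for RBL1. For miR-483-3p they gave -0.23, -0.11 and -0.09 for TFDP2, -0.18 and -0.13 for TFDP1 and -0.72 for E2F5. E2F4, the main E2F of resting cells, read 853.0 and 842.1 on the miR-483-5p arrays, 834.8 and 852.8 on the controls and 818.7 on the miR-483-3p array, nearly level across the arrays. Its other probe set gave log2 differences of -0.12 for miR-483-5p and -0.31 for miR-483-3p. RB1, the retinoblastoma gene itself, read 391.4 and 419.6 on the miR-483-5p arrays, 334.7 and 336.7 on the controls and 308.3 on the miR-483-3p array. Its second probe set had the opposite signs, -0.45 for miR-483-5p and 0.23 for miR-483-3p.

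The MuvB partners of LIN54 were mixed. LIN52 read 340.3 and 368.2 on the miR-483-5p arrays, 334.6 and 336.9 on the controls and 387.9 on the miR-483-3p array, so that, like LIN54, it was above both controls on each mimic array, by small margins. LIN37 read 61.2 and 67.0 on the miR-483-5p arrays, 97.2 and 89.2 on the controls and 98.5 on the miR-483-3p array. The miR-483-5p arrays were below the other 3, with a log2 difference of -0.38 (SE 0.15; limma adjusted p = 0.592). LIN9, LIN52 and RBBP4 had log2 differences of 0.05, 0.07 and 0.14 for miR-483-5p and of -0.17, 0.19 and 0.27 for miR-483-3p. The other 5 probe sets of RBBP4, a histone-binding subunit, were all higher with both mimics, by 0.16 to 0.43 for miR-483-5p and 0.21 to 0.65 for miR-483-3p. Of the other LIN9 probe sets one gave 0.63 and 0.49 and one -0.02 and 0.01.

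Of the cyclins, kinases and inhibitors that set the state of RB, 15 of 16 genes had a probe set of their own and 14 passed the filter. With miR-483-5p 7 were higher and 7 lower (median -0.05). Their other probe sets ran from -1.04 (CCND2) to 0.37 (CDKN2A), some with the opposite sign to the brightest. The median was -0.07 with each gene at the mean of its probe sets. CCNE2, a cyclin E gene, had a signal of 400 ± 0.778 in the control and 542 ± 7.21 with miR-483-5p (SD, n = 2 each), and the miR-483-3p array read 515. The log2 difference of 0.41 (SE 0.15) for miR-483-5p had a limma adjusted p of 0.574, and its other probe set gave 0.01. CCND1 (cyclin D1, 0.40, and 0.08 in its other probe set) was the other gene at an unadjusted p under 0.05. With miR-483-3p, 8 were higher and 6 lower (median 0.01), and none passed the unadjusted threshold.

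Reported E2F targets of the G1/S transition, mostly genes of DNA replication, were mostly higher with both mimics than in the control, none past an adjusted p of 0.05. Of 40 genes 37 had a probe set of their own, and all 37 passed the filter. With miR-483-5p 31 were higher and 6 lower (median log2 difference 0.19, and 0.11 without the first control array), and 3 were higher at an unadjusted p under 0.05. That count was 1 with the first array of either group left out, 2 with the second control left out and 6 with the second miR-483-5p array left out. These were CDC25A (the phosphatase that activates CDK2; 0.65, SE 0.19), RRM1 (a ribonucleotide reductase subunit; 0.53, SE 0.16) and BRCA1 (0.46, SE 0.15). The other probe sets of these genes gave 0.26 and -0.24 for CDC25A, 0.12 for RRM1 and 0.06 for BRCA1. With miR-483-3p 34 were higher and 3 lower (median 0.27, and 0.17 without the first control array), and 4 were higher at the unadjusted threshold, a count of 1 when the first control was left out and of 2 when the second was. PCNA, the sliding clamp of DNA polymerase, had a control signal of 2114 ± 94.2 (SD, n = 2) and read 3200 on the miR-483-3p array. CDC45, a part of the replicative helicase, had a log2 difference of 0.56 (SE 0.19). Between the arms 24 were higher and 13 lower with miR-483-3p (median 0.06).

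Reported B-MYB and FOXM1 targets of G2 and mitosis were also mostly higher than in the control, with 40 of 40 genes past the filter. With miR-483-5p 37 were higher and 3 lower (median 0.34), and 17 were higher and 0 lower at an unadjusted p under 0.05 in limma. That count was 7 and 10 when the first or the second control was left out, and 9 when the first miR-483-5p array was. The median was 0.28 with each gene at the mean of its probe sets. Of the 17, CDC25C (0.49) had the opposite sign in its other probe sets (-0.43 and -0.33). Those of BUB1 (0.47) gave 0.42, -0.19, -0.11 and 0.12, and that of HMMR gave 0.71. CENPE, a kinetochore motor, had a signal of 229 ± 4.6 in the control and 378 ± 13.9 with miR-483-5p (SD, n = 2 each), and the miR-483-3p array read 269. HMMR, a spindle protein, had a log2 difference of 0.66 (SE 0.17) and NUF2, a kinetochore protein, of 0.57 (SE 0.15). With miR-483-3p all 40 were above the control (median 0.22), the lowest by 0.00 after rounding, but 34 were higher and 6 lower when the first control was left out, and 39 and 1 when the second was. MKI67, the Ki-67 gene, was the only one at the unadjusted threshold (0.59, SE 0.19), and 0 were when either control array was left out. Between the arms 33 were lower and 7 higher with miR-483-3p (median -0.15), and 2 reached the unadjusted threshold, both lower. The GAPDH and ACTB ratios given above were also higher in the mimic arrays, and their part was not tested.

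**Figure D4:**
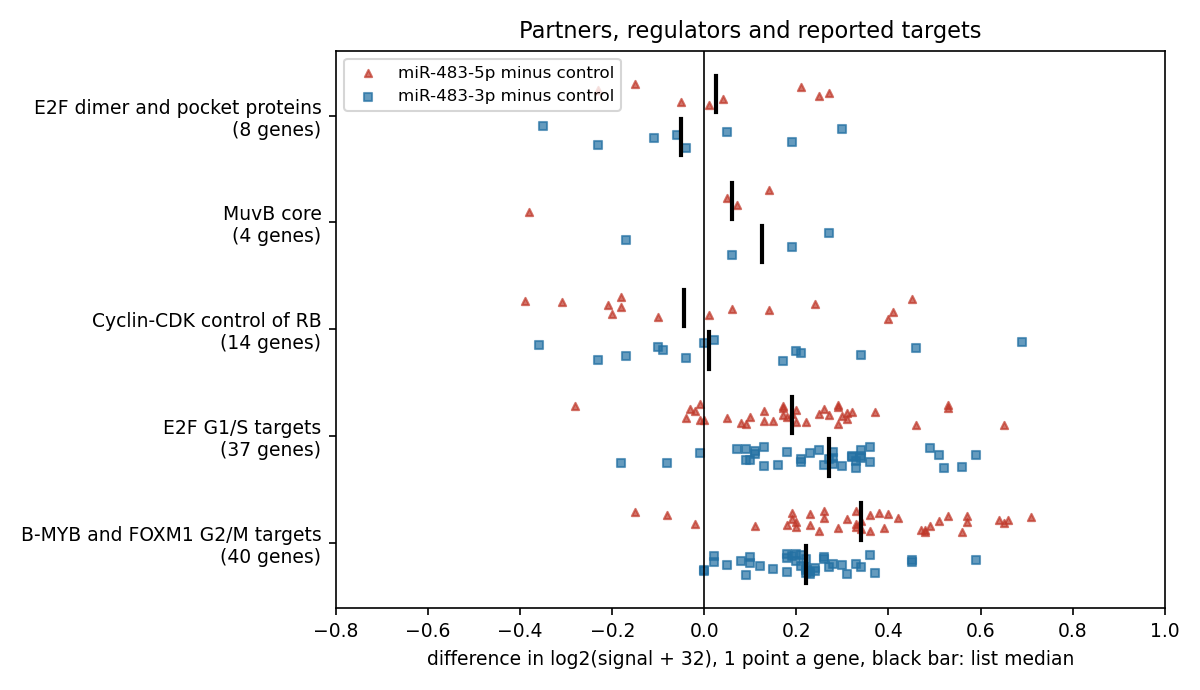
Difference in log2(signal + 32) from the scrambled control (horizontal axis) for the genes of 5 lists of partners, regulators and reported targets, 1 point a gene, red triangles for miR-483-5p and blue squares for miR-483-3p. Black bars are list medians, which are 0.34 and 0.22 for the G2 and mitosis targets, 0.19 and 0.27 for the G1/S targets, and within 0.13 of 0 for the other lists.

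Reported MYB targets in blood cells showed no common direction, with 4 higher and 5 lower of the 9 of 12 genes that passed the filter with miR-483-5p (median -0.02). KIT, the stem cell factor receptor gene, read 785.6 and 735.3 on the miR-483-5p arrays, 476.1 and 553.5 on the controls and 566.6 on the miR-483-3p array. With miR-483-5p it was the one gene of this list at an unadjusted p under 0.05, with a log2 difference of 0.54 (SE 0.16; limma adjusted p = 0.529). With miR-483-3p 5 were higher and 4 lower (median 0.00), and MPO, the myeloperoxidase gene of myeloid cells, was at 18.5 against 58.6 ± 9.9 in the control (SD, n = 2), dim on every array. Its log2 difference of -0.84 (SE 0.21) was the one of this list at the unadjusted threshold with miR-483-3p (limma adjusted p = 0.712), and its other probe set gave -0.09. Between the arms 1 gene of the list, again MPO, reached that threshold (-0.73). Only 3 of 10 reported A-MYB targets of spermatocytes passed the filter: TDRKH, CCNA1 and PLD6. TDRKH, a piRNA pathway gene, read 102.8 and 118.8 on the miR-483-5p arrays, 75.4 and 88.0 on the controls and 105.2 on the miR-483-3p array, above both controls on each mimic array. Its other probe sets gave log2 differences of 0.03 and -0.10 for miR-483-5p and of -0.17 and -0.20 for miR-483-3p. CCNA1 (cyclin A1) overlapped the control with miR-483-5p, and PLD6 had a log2 difference of -0.20, so the 3 genes were mixed for that mimic. On the miR-483-3p array all 3 were higher than the control, TDRKH by 0.27 (SE 0.20), CCNA1 by 0.38 (SE 0.31) and PLD6 by 0.03 (SE 0.20).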

How the data were processed

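The deposited tables give 1 linear intensity per probe set of an HG-U133 Plus 2 array, and the authors scaled each array to a common trimmed mean before deposit (150.02 after trimming 2% at each end, from the values). GCOS and Partek are named in the submitters' processing notes. How GCOS or Partek made the signals is not given here. Groups came from the labels. Of 54675 probe sets, 62 controls were left out. The platform annotation gives 41097 with 1 symbol, 1801 with several, none of them a member's, and 11777 with no symbol, and 41043 of the first matched the RefSeq gene table by gene identifier.

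Every probe set on its own was fitted, since the members are described by probe set. Signals were used as log2(signal + 32), the 32768 probe sets past the filter entered one limma model (limma 3.58.1, R 4.3.3) with 3 group means (2 residual degrees of freedom, 4.66 from the variance prior), and tests were two-sided with Benjamini-Hochberg adjustment at 0.05. The fit was tested on simulated data. The members and gene lists were chosen with earlier results of these data known. The text names all member probe sets, all genes of the partner lists by value or range, and the 5 genes nearest to MYBL1. From each other list it names genes among the 3 with the lowest p per mimic. E2F4, RB1, TDRKH, CCNA1 and PLD6 fall under these rules. CDC25C and BUB1 do not, and were named because their probe sets differed in sign. CCND2 and CDKN2A were named as the ends of a range. Alternatives were median centring, quantile normalization, pseudocounts of 1 and 100, no filter, the 60th percentile, a variance prior that follows intensity, 1 probe set a gene, a gene's mean over its probe sets, and each array of a pair left out. Applying them to the counts of target genes was decided after seeing the data. Figures were drawn with matplotlib 3.10.9.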

Additional observations from a re-analysis of the deposited data

How the results depend on the processing

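With 2 arrays in 2 groups and 1 in the third, precision is limited by the number of arrays, and no probe set passed an adjusted p of 0.05 in limma in any comparison under any alternative run. Of 54 member differences (18 probe sets in 3 comparisons), 37 kept their sign under the alternatives run on them (other scalings and pseudocounts, and an array left out): 10 of 18 for miR-483-5p against control, 15 of 18 for miR-483-3p against control and 12 of 18 between the arms. The gap between MYBL1 213906_at and 237014_at was 2.14 with a pseudocount of 1, 1.08 with 100, and 1.15 to 2.02 when an array was left out. The median of the G1/S targets was 0.11 to 0.25 with miR-483-5p when an array was left out and 0.17 to 0.36 with miR-483-3p when a control array was. Their 3 genes higher at an unadjusted p under 0.05 with miR-483-5p became 6 with a pseudocount of 100 or a prior that follows intensity and 5 at the 60th percentile. The 17 G2 and mitosis targets higher at an unadjusted p under 0.05 became 11 with a pseudocount of 1, 26 with 100, and 7 to 16 with an array left out. For miR-483-3p the 1 such gene became 6 with a pseudocount of 100 or a prior that follows intensity, and 2 at the 60th percentile. Probe sets at an unadjusted p under 0.05, 2730, 1834 and 1872 in the 3 comparisons, became 4196, 3434 and 3427 with no filter, which tests more probe sets, and 1563, 957 and 970 with 1 probe set a gene, which tests fewer. They became 1135 (miR-483-3p against control) and 1188 (between the arms) at the 60th percentile, and 1736 for miR-483-5p without the second control array. Of those for miR-483-5p, 1331 were higher and 1399 lower, after median centring 1577 and 1073, and without the second miR-483-5p array 1269 and 2500. For miR-483-3p they were 660 and 1174, and 854 and 1006 after median centring. Between the arms 800 and 1072 became 1744 and 964 without the second miR-483-5p array. The cause of the changes with pseudocount and left-out arrays was not tested. No paired analysis was possible because the labels give no replicate numbers that the groups share.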
